A study of Drosophila melanogaster with 19 samples.

Results

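The genes zfh1, bab1, bab2, ush, srp and Antp encode DNA-binding transcription factors, or in the case of ush a cofactor of one, and were followed as 6 of the 12013 transcripts that carry a symbol in the deposited tables, 1 transcript for each gene. They were chosen by name, with earlier results of these tables known. Among those results were the higher signal of zfh1, ush and srp after knockdown (KD) of Zuc and of bab1 and ush in the Piwi library labelled Yb KD. All values of the 6 genes below are therefore given as a description, with no test of their own, and counts of how many moved support nothing about the group. Each gene was found in all 5 tables under the same transcript identifier.

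The material was the ovarian somatic cell line OSC of Drosophila melanogaster, which grows without germ cells. RNA crosslinked to the RNA helicase Armi was read by iCLIP after Yb KD and after a control KD against EGFP, for transfected Myc-tagged Armi carrying the substitution D862A or R949A or unsubstituted (WT), and in untreated cells. CLIPPARE, which reads the 5' ends of Armi-bound RNA, was done after Zuc KD and after the same EGFP control KD, and small RNA bound to Piwi was read in a library labelled Yb KD, after control KD and in untreated cells. The transfected cells were not stated to lack their own Armi, so the Myc columns describe the tagged protein in cells that may also hold the untagged one.

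In these cells Piwi carries piRNAs, small RNAs that silence transposons. Armi binds long single-stranded precursors, which it meets at the cytoplasmic Yb body, named for the protein Yb, and the endonuclease Zucchini (Zuc) on the mitochondrial surface cuts them into piRNA-sized pieces. Besides transposon-rich clusters, some mRNAs of the follicle lineage give piRNAs, chiefly from their 3' ends.

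The proteins fall into several groups. Zfh1 is a zinc finger and homeodomain repressor of mesoderm and of the somatic cells of the gonad. Bab1 and Bab2 are paralogous BTB-domain factors that pattern the ovary's terminal filaments, the legs and abdominal pigmentation. Srp is a GATA factor of blood and fat body, Ush (U-shaped, the fly Friend of GATA) binds GATA factors and modifies their activity, and Antp is the Hox protein of the thorax.

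The 14 columns are in RPM, reads per M (mega) of reads, and each value is a whole number of reads. Implied totals ran from 0.813 M in the control KD Piwi library to 10.4 M in the control KD iCLIP column. The Yb KD, control KD and Myc-Armi iCLIP columns each stand for 2 libraries in the labels, so they have no spread, and every Piwi condition is 1 library. The share of all reads in the listed transcripts was 34.2% in the Yb KD iCLIP column and 20.5% in its control, 54.7% in the Piwi library labelled Yb KD and 18.6% in its control, and 63.3% for D862A and 63.8% for R949A beside 33.2% for WT. Most transcripts had more RPM in the first-named columns, by a median log2 ratio of 1.58, 2.00, 1.73 and 1.68, and each gene is also given relative to that table median, taken over the transcripts that averaged 5 RPM or more. The fs(1)Yb transcript, whose product is Yb, had 23.8 RPM in the Yb KD iCLIP column and 269 RPM in control KD. In Piwi small RNA it had 44.5 RPM in the library labelled Yb KD and 29.5 RPM in control KD, and that library's genotype label names the EGFP RNAi while its title names Yb. The labels of both KD Piwi libraries list an anti-c-Myc antibody, where the protocol describes one against Piwi. Without zfh1, which is one of them, the 7 other follicle and somatic gonad markers found summed to 1992 to 5219 RPM over the 14 columns, with 2166 RPM in Yb KD and 5219 RPM in control KD Armi iCLIP, and germline markers to 7.55 to 42.2 RPM. In Armi iCLIP most of the follicle sum was tj, at 1170 RPM in Yb KD and 4510 RPM in control KD. fax had 611 and 614 RPM. ptc, eya and Fas3 were higher in Yb KD, at 297, 62.3 and 21.8 RPM against 82.0, 9.21 and 3.55 RPM in control KD. bru-3 and slbo, at 1.57 and 1.80 RPM in Yb KD, were also higher there.

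The fold intervals below are exact 95% conditional binomial intervals on the recovered reads and cover counting error only, since the reads come from PCR. RPM is not per length, so levels were compared within a gene and not between genes. Armi or Piwi signal in RPM is a share of a library's reads, which is neither an amount of bound RNA nor an mRNA level. A change in the mRNA and a change in its binding therefore cannot be told apart. The same holds for fewer cells of a type and less RNA per cell.

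**Figure D1:**
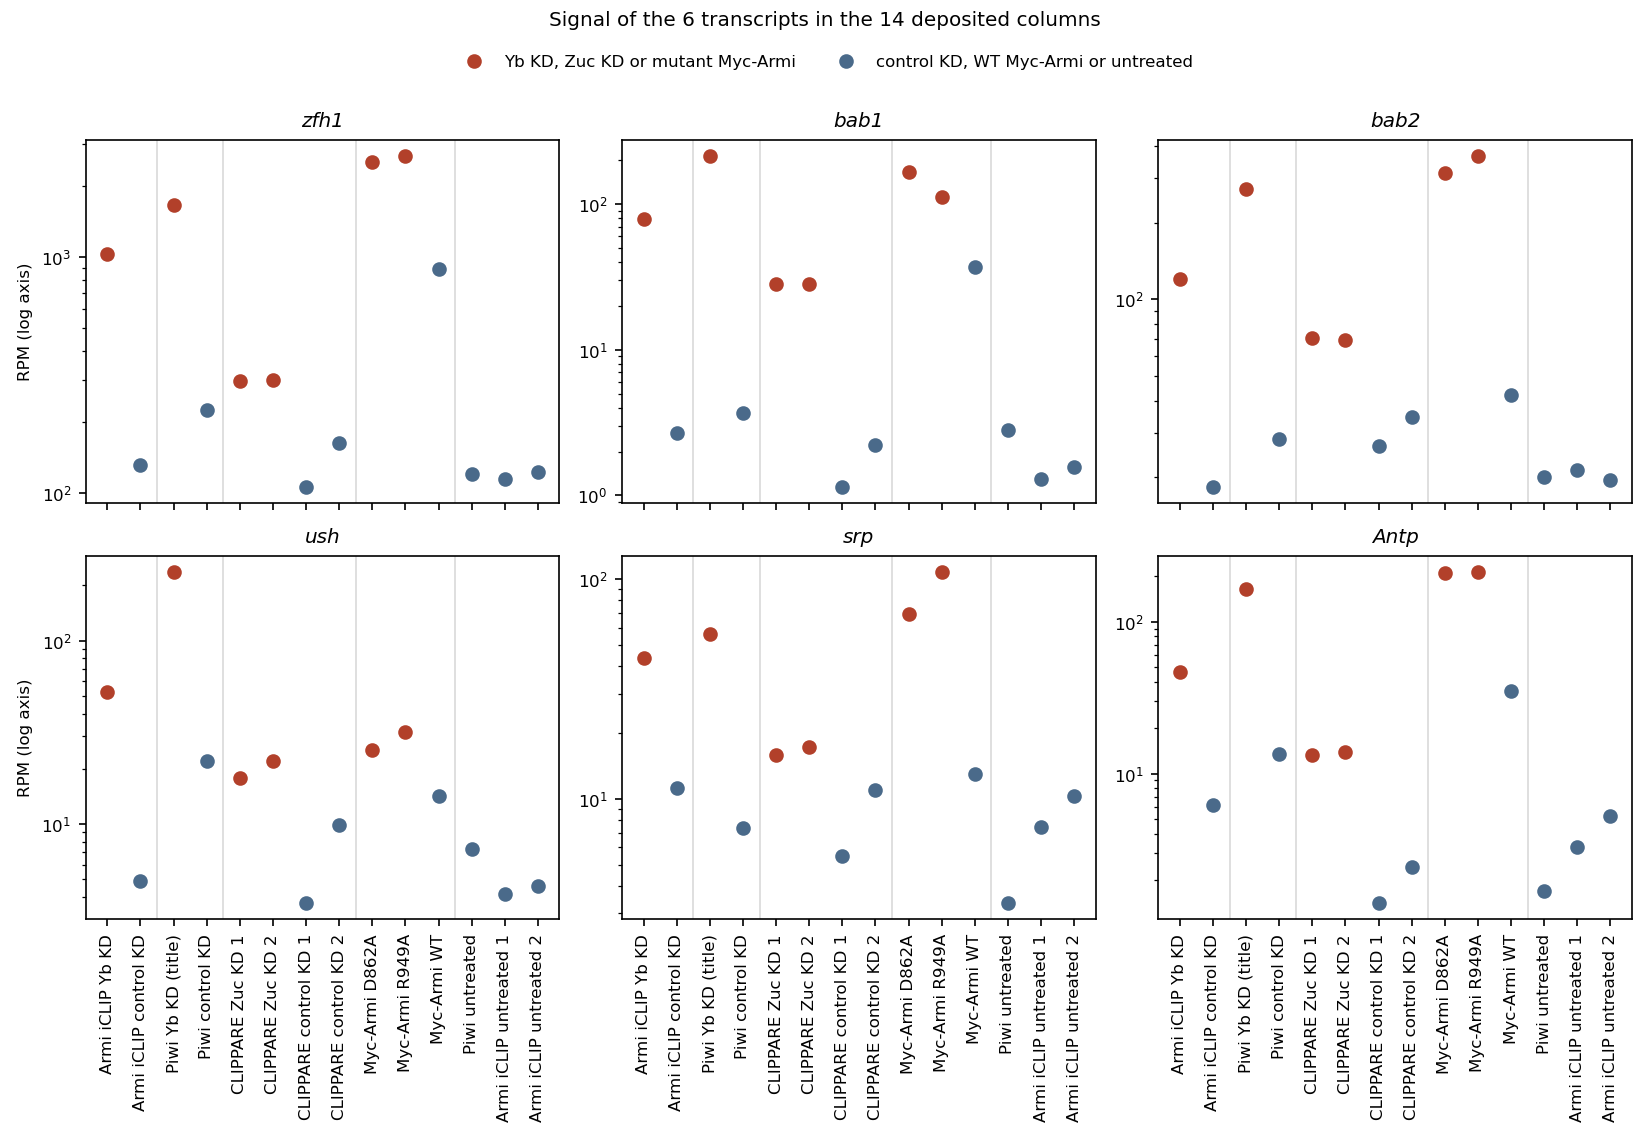
RPM of the 6 transcripts (log axes, 1 panel for each gene) in the 14 deposited columns, in red for Yb KD, Zuc KD and mutant Myc-Armi and in blue for control KD, WT Myc-Armi and untreated cells. Each point is 1 column, and in every panel the red points lie above the blue points of the same assay.

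In untreated cells each of the 6 transcripts had reads in Armi iCLIP, though those of bab1, ush and Antp only at a few RPM. These were 9 and 14 reads for bab1, 29 and 41 for ush and 23 and 47 for Antp. None of the 14 columns holds input RNA or a mock pulldown, so such low signal cannot be told from background. In the 2 Armi iCLIP libraries zfh1 had 114 and 122 RPM, bab2 21.4 and 19.5 RPM, srp 7.46 and 10.3 RPM, ush 4.16 and 4.60 RPM, Antp 3.30 and 5.27 RPM and bab1 1.29 and 1.57 RPM. The zfh1 transcript thus averaged 118 ± 6.08 RPM in Armi iCLIP (SD, n = 2), that of bab2 20.4 ± 1.31 RPM and that of srp 8.89 ± 2.02 RPM. The averages were 4.38 ± 0.311 RPM for ush, 4.28 ± 1.39 RPM for Antp and 1.43 ± 0.198 RPM for bab1. In Piwi small RNA of untreated cells zfh1 had 120 RPM, bab2 20.1 RPM, ush 7.26 RPM, srp 3.35 RPM, bab1 2.79 RPM and Antp 1.68 RPM. The last 3 of these Piwi values rest on 6 reads for srp, 5 for bab1 and 3 for Antp.

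The tables class transcripts by piRNA level, and the classes follow the untreated Piwi RPM. zfh1 belongs to the High class, whose 238 transcripts run from 101 to 2958 RPM, and stands near its lower edge. bab2 stands at the lowest Piwi value of the 742 Middle-class transcripts, 20.1 RPM. The other 4 genes belong to the Low class, with 5488 transcripts from 0.559 to 19.6 RPM.

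Set beside Armi iCLIP, the untreated Piwi signal of zfh1 was 1.02-fold that of Armi (0.875 to 1.17) and that of bab2 0.984-fold (0.681 to 1.40). For ush it was 1.66-fold (0.836 to 3.01), and for srp 0.377-fold (0.134 to 0.825). The table median of that log2 ratio was -0.66 over 3189 transcripts, and relative to it ush lay at 1.28, zfh1 at 0.69, bab2 at 0.64 and srp at -0.52. bab1 at 1.31 and Antp at -0.32 did not reach a mean of 5 RPM. None of the 6 lay at least 2-fold below the table median, where 17.3% of transcripts did. Of those that passed the filter, ush alone was at least 2-fold above it, where 18.5% of transcripts were. bab1 also lay that far above it but is not among the 3189. ush reached the mean of 5 RPM only through Piwi small RNA, and srp only through Armi iCLIP.

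After Yb KD all 6 transcripts had more RPM in Armi iCLIP as deposited, by 3.91-fold for srp to 29.2-fold for bab1. So had 3557 of the 4039 transcripts compared. The zfh1 transcript had 1034 RPM in Yb KD and 131 RPM in control KD, which is 7.87-fold higher (7.41 to 8.37). That of bab1 had 78.5 RPM in Yb KD and 2.69 RPM in control KD, 29.2-fold higher (19.9 to 44.6). That of bab2 had 120 RPM in Yb KD and 18.4 RPM in control KD, 6.54-fold higher (5.53 to 7.75). The ratio of bab1 was therefore larger than those of zfh1 and bab2 beyond counting error.

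The ush transcript had 52.6 RPM in Yb KD and 4.89 RPM in control KD (10.8-fold higher, 7.92 to 14.9). Its GATA partner srp had 43.9 RPM in Yb KD and 11.2 RPM in control KD (3.91-fold higher, 3.09 to 4.96). Antp had 46.6 RPM in Yb KD and 6.23 RPM in control KD (7.47-fold higher, 5.63 to 10.0). The intervals of ush and of srp did not overlap, so the cofactor gene had the larger ratio of the pair beyond counting error.

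Relative to the table median, which was 2.99-fold, the log2 ratios were 2.85 for bab1, 1.61 for ush, 1.39 for zfh1, 1.14 for Antp, 1.06 for bab2 and 0.29 for srp. Those of 5 of the 6, all but srp, were at least 2-fold above the median, where 9.51% of 4039 transcripts were. Because the genes were picked with such values known, nothing is read from that count. bab1 and ush reached the mean of 5 RPM only through the Yb KD column. The bab1 ratio stood at the 99.8 percentile of the table and that of srp at the 64.4 percentile.

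The same 6 transcripts had more RPM in Piwi small RNA in the library labelled Yb KD, as had 4607 of the 4924 transcripts compared. zfh1 had 1661 RPM there and 224 RPM in control KD (7.41-fold higher, 6.35 to 8.70). bab1 had 213 RPM in the library labelled Yb KD and 3.69 RPM in control KD, the control value being 3 reads, which is 57.8-fold higher (19.5 to 283). bab2 had 271 RPM in the library labelled Yb KD and 28.3 RPM in control KD (9.56-fold higher, 6.22 to 15.4).

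Of the GATA pair, ush had 236 RPM in the library labelled Yb KD and 22.2 RPM in control KD (10.6-fold higher, 6.56 to 18.3). srp had 56.2 RPM there and 7.38 RPM in control KD, which is 6 reads (7.62-fold higher, 3.26 to 21.8). Antp had 165 RPM there and 13.5 RPM in control KD (12.2-fold higher, 6.62 to 25.01). With so few control reads, the intervals of zfh1, bab2, ush, srp and Antp overlap one another.

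The table median was 4.01-fold, and relative to it the log2 ratios were 3.51 for bab1, 1.51 for Antp, 1.35 for ush, 1.21 for bab2, 0.88 for zfh1 and 0.77 for srp. bab1, Antp, ush and bab2 were at least 2-fold above it, where 12.5% of 4924 transcripts were. Here bab1 reached the mean of 5 RPM only through the library labelled Yb KD. bab1 had the highest relative ratio of the 6 in both assays, while the lowest was that of srp in Armi iCLIP. In Piwi small RNA the order of srp and zfh1 is not settled, since zfh1 had the lower plain fold and, with a pseudocount of 0.1 RPM, lay at 0.75 beside 0.77 for srp.

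**Figure D2:**
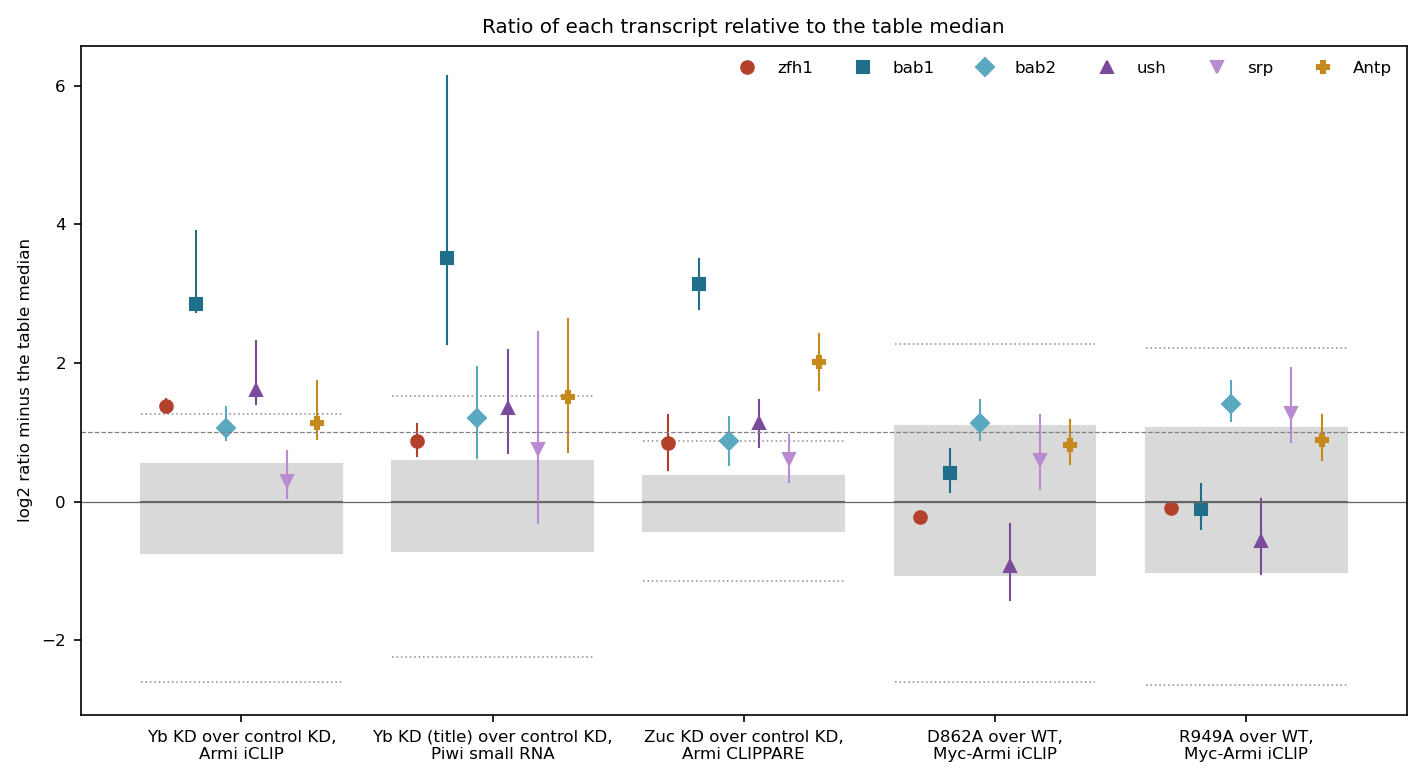
Log2 ratio of each of the 6 transcripts minus the table median (y axis) in the 5 comparisons, with the first-named condition over the second. Bars on points are 95% counting intervals (for Zuc KD, 1 SE of limma), drawn on the ratio without pseudocount, grey boxes hold the middle of the table between its quartiles, dotted lines are its 5 and 95 percentiles and the dashed line is 2-fold above the median; bab1 lies highest in the first 3 comparisons, at 2.85, 3.51 and 3.14.

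CLIPPARE after Zuc KD is the one comparison with replicate columns. The zfh1 transcript had 297 and 301 RPM in the Zuc KD libraries, against 106 and 162 RPM in control KD. bab1 had 28.1 and 28.4 RPM in Zuc KD, against 1.15 and 2.23 RPM in control KD, and bab2 had 70.7 and 69.3 RPM in Zuc KD, against 26.5 and 34.6 RPM in control KD. For these 3 genes both Zuc KD libraries lay above both controls.

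The ush transcript had 17.8 and 22.1 RPM in Zuc KD, against 3.71 and 9.86 RPM in control KD. srp had 15.8 and 17.2 RPM in Zuc KD, against 5.50 and 10.97 RPM in control KD. Antp had 13.2 and 13.8 RPM in Zuc KD, against 1.41 and 2.42 RPM in control KD. Here too the groups did not overlap, as for all 6 genes, and both Zuc KD libraries lay above both controls for 47.6% of the 4006 transcripts tested. In each of the 6 genes control KD replicate 2 was above replicate 1, and over all transcripts tested its median log2 value was 0.47 higher.

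By limma on log2(RPM + 1), the change in log2 was 3.47 (SE 0.362) for bab1, 2.34 (SE 0.402) for Antp, 1.54 (SE 0.337) for ush, 1.18 (SE 0.347) for bab2, 1.18 (SE 0.402) for zfh1 and 0.98 (SE 0.336) for srp. All 6 passed the call at an adjusted p of 0.05 and were higher in Zuc KD, where 11.8% of transcripts were called higher; since the genes were selected on this contrast, nothing is read from that. Of the 4006 transcripts tested 471 were called higher and 111 lower, against 379 and 570 with each library centred on its median, 374 and 532 by edgeR and 233 and 436 by DESeq2. srp was not called under centring, edgeR or DESeq2, and zfh1 was not called with the replicate number as a block. With no filter on low values bab1 and Antp alone were called, and with a filter of 20 RPM, which zfh1 and bab2 passed, bab2 alone. bab1 was called also without Zuc KD replicate 1 and without Zuc KD replicate 2, whereas zfh1, bab2, ush, srp and Antp lost their calls in both cases, and srp also lost its call without control KD replicate 1. bab1 and Antp reached a mean of 5 RPM only through the Zuc KD libraries.

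The piRNA class gave a frame for zfh1 and bab2. The High class as a whole lay below the table median, with a median log2 ratio relative to it of -2.12 in Yb KD Armi iCLIP, -1.82 in the Piwi library labelled Yb KD and -0.84 in Zuc KD CLIPPARE. zfh1 lay on the other side, at 1.39, 0.88 and 0.85, and had the second highest ratio of the 238 High-class transcripts in each comparison, after Xrp1, LanA and chinmo. By limma 40 High-class transcripts were lower in Zuc KD and 2 were higher, zfh1 and chinmo, a BTB factor of the testis and ovary soma. Those counts depend on the setting: with each library centred 138 were lower and 6 higher, zfh1 and chinmo among the 6, and with the replicate block 23 were lower and 0 higher. With either Zuc KD library left out, none of the class was called. Before centring, the High-class transcript tj, the best known source of genic piRNAs, had 1170 RPM in Yb KD and 4510 RPM in control KD.

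bab2 showed the same contrast in the Middle class, though it holds the lowest untreated Piwi value of that class, and zfh1 also stands near the lower edge of its own. The part that this place plays in their ranks was not tested. The class median was -0.59 in Yb KD Armi iCLIP, -0.49 in the Piwi library labelled Yb KD and -0.26 in Zuc KD CLIPPARE, whereas bab2 lay at 1.06, 1.21 and 0.87. Its ranks were 30 of 733, 7 of 738 and 22 of 737. Low-class medians lay close to the table median, at 0.14, 0.15 and 0.09, and there bab1 ranked 8 of 2958, 6 of 3669 and 6 of 2487. In all 3 comparisons bab1 was below 5 RPM in control KD and entered the ranked set only through the condition where it was high, so its place near the top follows in part from the filter. In the same sets srp ranked 1213, 788 and 347.

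**Figure D3:**
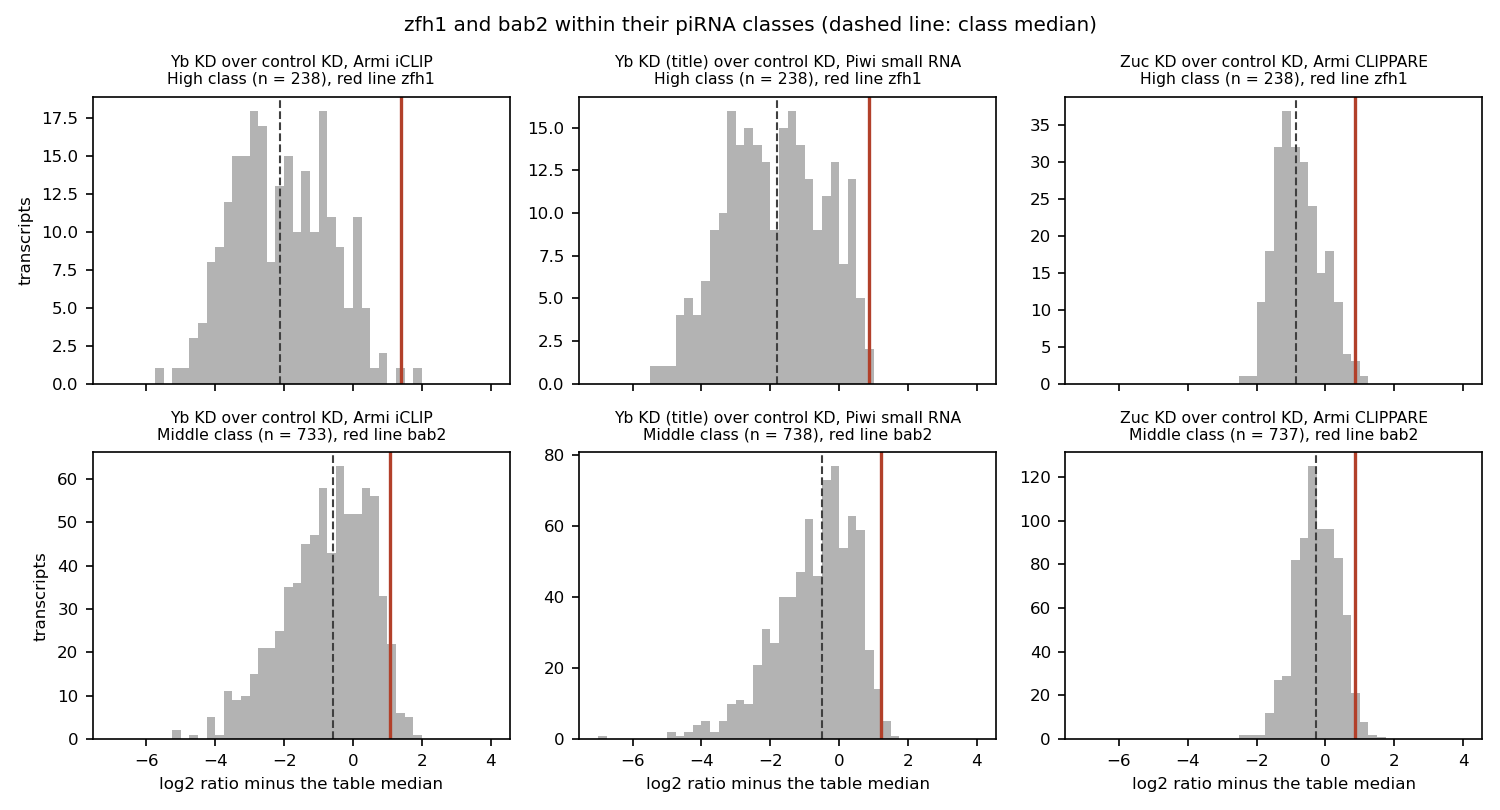
Histograms of the log2 ratio minus the table median (x axis) for the High class (top) and the Middle class (bottom) in 3 comparisons; the y axis counts transcripts. The red line marks zfh1 (top) or bab2 (bottom), which lie near the right edge of their classes, and the dashed line the class median, at -2.12, -1.82 and -0.84 for High.

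The paralogs bab1 and bab2 lie next to each other on chromosome arm 3L, with 39.4 kb between their annotated ends, and both had higher signal in each KD comparison, but in unlike proportion. The RPM of bab2 over that of bab1, a ratio not corrected for length and compared only between columns, was 1.53 in Yb KD Armi iCLIP and 6.86 in its control KD. It was 1.27 in the Piwi library labelled Yb KD and 7.67 in its control KD. It was 2.51 and 2.44 in the Zuc KD CLIPPARE libraries, against 23.0 and 15.5 in their controls. The ratio was thus lower in each of these 3 comparisons than in its control. In untreated cells it was 16.6 and 12.4 in the Armi iCLIP libraries and 7.20 in the Piwi library. In Myc-Armi iCLIP it ran the other way, at 1.88 with D862A and 3.27 with R949A, against 1.14 with WT, which is the lowest of the 14 columns, so a low ratio did not mark the KD columns alone.

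The genes next to the 6 had values of their own. Of 20 neighbours, up to 2 on either side of each gene, 9 passed the filter of 5 RPM. In Yb KD Armi iCLIP 2 of these 9, MED15 and cbt beside ush, were at least 2-fold above the table median, where 9.51% of all transcripts were. At least 2-fold below were 3 of the 9. The share of all transcripts that far below was not taken, so nothing is read from that count. The Mediator subunit gene MED15, 47.3 kb from ush, lay at 1.24 there (44.8 RPM in Yb KD, 5.47 RPM in control KD), at -0.14 in the Piwi library labelled Yb KD and at 0.84 in Zuc KD CLIPPARE. cbt, whose locus on arm 2L overlaps ush in RefSeq but not in the tables, lay at 2.36 in Yb KD Armi iCLIP, where it had 35.1 RPM in Yb KD and 1.34 RPM in control KD. It passed the filter of 5 RPM only through the Yb KD column. Beside srp, the chromatin remodeller gene mor lay at 0.58 in Yb KD Armi iCLIP and at 2.27 in the Piwi library labelled Yb KD (114 RPM there, 4.92 RPM in control KD), the one of the 9 at least 2-fold above the median in that table. Of all transcripts 12.5% were so there, and mor passed the filter only through the library labelled Yb KD. Hel89B, 2.75 kb from srp, lay at 0.64 and -0.06 in these tables and at 0.66 in Zuc KD CLIPPARE. The trio transcript, 1.49 kb from the annotated locus of bab1, lay at -1.08 in Yb KD Armi iCLIP and at -0.39 in Zuc KD CLIPPARE. wts, a Hippo-pathway kinase gene 2.48 kb from zfh1, lay at 0.90 in Yb KD Armi iCLIP, at -0.04 in the Piwi library labelled Yb KD and at 0.17 in Zuc KD CLIPPARE. On chromosome arm 3R, the neighbours Scr and ftz of Antp and GATAe and pnr of srp were at 0 RPM in both iCLIP KD columns and in both KD Piwi libraries. How reads shared by a pair such as cbt and ush were counted is not stated in the sources used here, so part of the ush signal is uncertain. RefSeq also places an antisense RNA over zfh1, 2 long non-coding RNAs over ush, 1 over srp, and CG46458 and 1 long non-coding RNA over Antp.

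In Myc-Armi iCLIP the 6 transcripts had more RPM with either substitution than with WT, but relative to the table median they parted. Of all transcripts compared, 3977 of 4585 had more RPM with D862A than with WT, and 3884 of 4473 with R949A. zfh1 had 2518 RPM with D862A and 2678 RPM with R949A, against 889 RPM with WT, and these are its highest values in the 14 columns. bab1 had 166 RPM with D862A and 112 RPM with R949A, against 36.9 RPM with WT. bab2 had 313 RPM with D862A and 366 RPM with R949A, against 42.0 RPM with WT. For all 3 both mutant columns were above WT.

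ush had 25.3 RPM with D862A and 31.6 RPM with R949A, against 14.1 RPM with WT. srp had 69.3 RPM with D862A and 107 RPM with R949A, against 13.0 RPM with WT, and Antp had 208 RPM with D862A and 211 RPM with R949A, against 35.0 RPM with WT. As deposited, the folds of D862A over WT ran from 1.79 for ush (1.24 to 2.65) to 7.44 for bab2 (6.13 to 9.13), and those of R949A over WT from 2.23 for ush (1.55 to 3.29) to 8.70 for bab2 (7.16 to 10.7).

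Relative to the table median, bab2 lay at 1.14 with D862A and 1.42 with R949A, Antp at 0.81 and 0.89, and srp at 0.61 and 1.28. ush lay below the median at -0.93 and -0.57. zfh1 lay at -0.22 and -0.09, and other pseudocounts or sets of transcripts for the median put it between -0.32 and 0.10 with D862A and between -0.18 and 0.22 with R949A, so its direction is not settled. bab1 lay at 0.41 with D862A and at -0.10 with R949A, and its R949A value changed sign over the same settings (-0.18 to 0.18). At least 2-fold above the median were bab2 with D862A, where 26.7% of 4585 transcripts were, and bab2 and srp with R949A, where 26.3% of 4473 were. The 2 comparisons share the WT column. Between the mutants, D862A over R949A was 1.49-fold for bab1 (1.35 to 1.64) and 0.647-fold for srp (0.571 to 0.733), while for Antp it was 0.985-fold (0.910 to 1.07), an interval that includes equal signal.

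The High class lay at -1.83 with D862A and at -1.69 with R949A. Among its 238 transcripts zfh1 ranked 14th with D862A and 11th with R949A, and bab2 ranked 20 of 725 and 13 of 727 in the Middle class. Beside untreated Armi iCLIP, the WT construct had more RPM for 5 of the 6 beyond counting error, and for srp the interval included equal signal. Counting error aside, 2309 of the 3170 transcripts compared had more RPM with WT. bab1, Antp and ush reached the mean of 5 RPM only through the WT column. WT Myc-Armi had 25.8-fold more RPM for bab1 (16.0 to 42.2), 8.16-fold more for Antp (5.74 to 11.02) and 7.53-fold more for zfh1 (7.04 to 7.97). It had 3.23-fold more for ush (2.09 to 4.87), 2.06-fold more for bab2 (1.65 to 2.58) and 1.46-fold for srp (0.949 to 2.10), where the table median was 1.59-fold. Relative to that median bab2 lay at 0.34 and srp at -0.17. Antibody, transfection and table all differ between these columns and cannot be told apart.

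In Armi iCLIP the control KD column had a median of 1.12-fold the untreated RPM over the transcripts compared. Relative to that table median the 6 genes ran from -0.30 for bab2, at the 17.2 percentile of the table, to 0.44 for bab1. As deposited, bab1 was 1.88-fold higher in control KD (1.03 to 3.37). Neither bab1 nor ush reached a mean of 5 RPM in this comparison. In Piwi small RNA the control KD library had 1.86-fold the untreated RPM for zfh1 (1.52 to 2.28), close to the table median of 1.93-fold, but 8.08-fold for Antp (2.13 to 45.1; 11 reads in control KD and 3 in untreated cells).

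The ratio of Piwi to Armi signal also differed between genes. In the Piwi library and the iCLIP column labelled Yb KD, Piwi over Armi was 4.47-fold for ush (3.69 to 5.43), 3.55-fold for Antp (2.84 to 4.42), 2.72-fold for bab1 (2.26 to 3.26), 2.25-fold for bab2 (1.92 to 2.63), 1.61-fold for zfh1 (1.51 to 1.71) and 1.28-fold for srp (0.915 to 1.77). In control KD it was 4.53-fold for ush (2.49 to 7.88), 2.17-fold for Antp (1.03 to 4.15) and 1.71-fold for zfh1 (1.45 to 1.99). It was 1.54-fold for bab2 (0.952 to 2.38), 1.37-fold for bab1 (0.267 to 4.45) and 0.658-fold for srp (0.237 to 1.48). The table median was 1.75-fold in the pair labelled Yb KD and 1.12-fold in control KD. ush, Antp, bab2 and bab1 thus lay above the table median in both pairs, zfh1 in control KD alone and srp in neither. Only for ush did the interval lie above the median in both. bab1 did not reach a mean of 5 RPM in control KD. In control KD, however, ush had 4.89 RPM in Armi iCLIP and reached the mean of 5 RPM only through the Piwi library.

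The 6 loci are long. In the deposited tables they span 21.3 kb for zfh1, 64.7 kb for bab1, 36.8 kb for bab2, 17.1 kb for ush, 17.9 kb for srp and 103 kb for Antp, all at or above the 92.2 percentile of 12013 loci. In Yb KD Armi iCLIP the median relative ratio was 0.05 for loci under 2 kb and 0.17 for those of 50 kb and over, the 6 genes left out. The share of loci at least 2-fold above the table median was larger for the longer loci there, being 8.004% under 2 kb, 6.62% from 2 to 5 kb, 11.7% from 10 to 20 kb, 16.6% from 20 to 50 kb and 15.0% at 50 kb and over. These last 3 bins hold the 6 genes, so the 9.51% over all transcripts is below the share for loci of their span. In the Piwi library labelled Yb KD that share was 13.8% under 2 kb and 14.8% at 50 kb and over. In Zuc KD CLIPPARE the median was -0.14 for loci under 2 kb and 0.30 for those of 50 kb and over, and the share at least 2-fold above the table median 1.25% and 9.84%. In the mutants the median ran the other way, at 1.19 with D862A and 1.13 with R949A for loci under 2 kb, against -0.88 and -0.68 for 50 kb and over. Beside loci of their own span, all of zfh1, bab1, bab2, srp and Antp were above the median of the bin in both mutants, and ush with R949A alone (-0.57 against -0.62). The part that span plays in the ratios of the 6 genes was not tested.

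**Figure D4:**
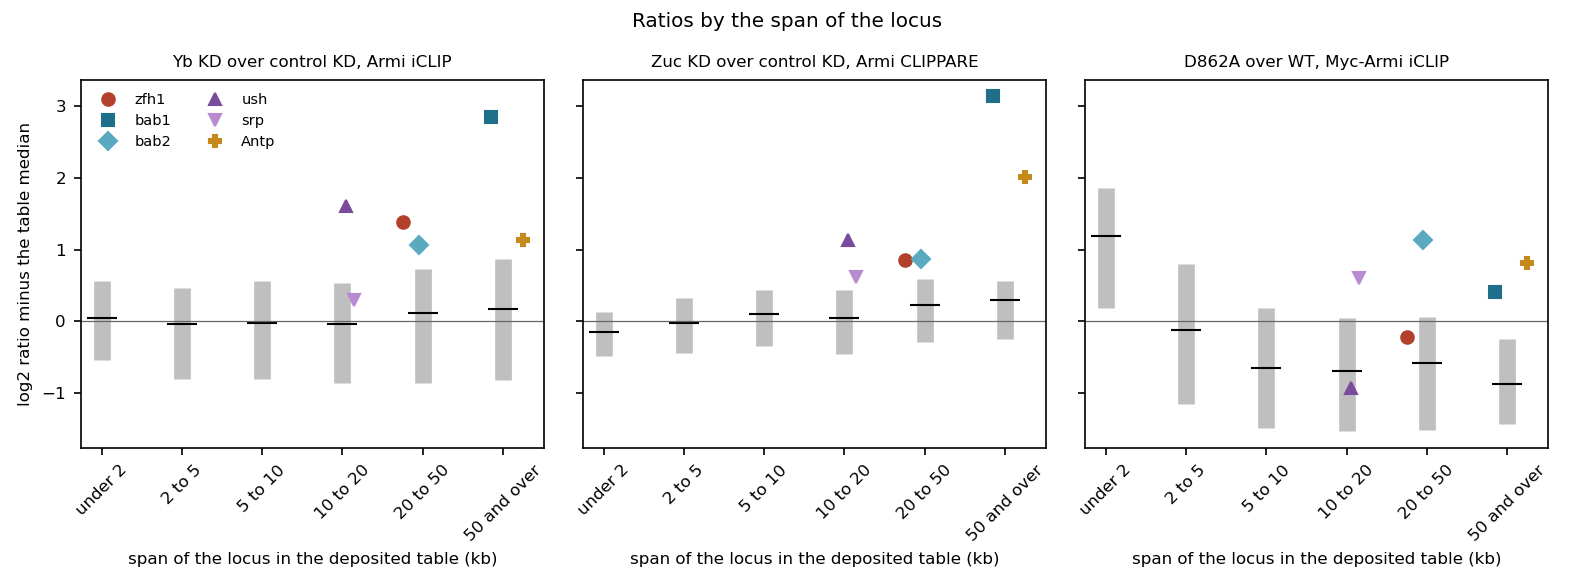
Log2 ratio minus the table median (y axis) by the span of the locus in kb (x axis, 6 bins) in 3 comparisons; black dashes are bin medians, grey bars run between the quartiles and coloured symbols are the 6 genes. With D862A the bin median is 1.19 under 2 kb and -0.88 at 50 kb and over, without a steady fall between. In that panel bab1, bab2, srp and Antp lie above 0, and zfh1 and ush below.

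Across all 14 columns the 6 genes did not share 1 profile. On log2(RPM + 1) minus the column median, Pearson's r was 0.91 between zfh1 and Antp, 0.91 between zfh1 and bab1, 0.87 between bab1 and Antp, 0.80 between bab1 and bab2, and 0.18 between ush and srp. The other pairs ran from 0.35 (zfh1 and ush) to 0.75 (bab2 and srp). These values describe columns that share controls and differ in assay, so they carry no p. Of 2292 transcripts averaging 20 RPM or more, the profile most like that of zfh1 was Hrb98DE, an hnRNP (r = 0.97), followed by Deaf1 and Cdc42, with Antp only 35th and bab1 37th. For bab1 it was the chitin deacetylase Cda5 (r = 0.96), then HDAC4 and CHKov1, and for bab2 the initiation factor subunit eIF-2beta (r = 0.94), then nocte and CG5384. For ush it was the chromatin remodeller dom (r = 0.96), then Sin3A and CG14619. For srp it was the chaperonin subunit T-cp1 (r = 0.89), then bur and Cctgamma, and for Antp the BMP-binding protein gene cv-2 (r = 0.97), then aop and CG32103.

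Other genes of the same families were mostly too low to compare. Of the 4 other GATA genes GATAd alone passed the filter of 5 RPM. It lay at 0.70 in Yb KD Armi iCLIP (140 RPM in Yb KD, 28.0 RPM in control KD) and changed by 0.95 in Zuc KD CLIPPARE (SE 0.330, limma adjusted p 0.0358), a call lost with either Zuc KD library left out, with no filter, with a filter of 20 RPM, without trend and by DESeq2. Of 9 other Hox genes and cofactors found, exd alone passed, a High-class homeodomain cofactor of Hox proteins. It lay at -2.55 in Yb KD Armi iCLIP (342 RPM in Yb KD, 671 RPM in control KD), opposite to Antp, and its change of -0.67 in Zuc KD CLIPPARE did not pass (SE 0.390, limma adjusted p 0.229). That depends on the setting, since exd was called lower with each library centred, by edgeR and by DESeq2.

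Of 11 other BTB factors found, 8 passed the filter in Yb KD Armi iCLIP, with a median relative ratio of 0.04. mod(mdg4), which encodes chromatin insulator proteins, was at least 2-fold above the median at 1.45, and lola, a High-class gene of axon guidance, at least 2-fold below at -1.85. Of all transcripts 9.51% were at least 2-fold above. With 4.12 RPM in control KD, mod(mdg4) passed the filter only through the Yb KD column. In the Piwi library labelled Yb KD the median of the 8 was 0.43. In Zuc KD CLIPPARE 4 of 8 were called higher and 0 lower by limma, where 11.8% of all transcripts were called higher. They were br, an ecdysone-response factor (1.58, SE 0.361), chinmo (1.40, SE 0.433), mod(mdg4) (1.35, SE 0.332) and ttk, a repressor of the follicle epithelium (1.00, SE 0.371). With each library centred the same 4 were higher and lola was lower. With the replicate block only br and mod(mdg4) were called, and with either Zuc KD library left out none of the 8. With D862A the median of the 9 that passed was -0.84, with 1 at least 2-fold above and 4 at least 2-fold below. Of all transcripts 26.7% were at least 2-fold above, and the share at least 2-fold below was not taken. The 1 above was mod(mdg4), which had 4.32 RPM with WT and passed only through the D862A column.

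Zfh1 represses genes together with the corepressor CtBP. Of this and 3 more corepressor genes and the relative zfh2, the 4 corepressors passed the filter in Zuc KD CLIPPARE. Their log2 changes did not pass, at 0.77 for gro (limma adjusted p 0.113), 0.92 for CoRest (adjusted p 0.0564), 0.86 for Rpd3 (adjusted p 0.0563) and 0.36 for CtBP (adjusted p 0.553). CoRest was, however, called higher with each library centred and by edgeR, and Rpd3 with the replicate block. In Yb KD Armi iCLIP the 4 had a median of 0.47, with gro at 0.42 and CtBP at -0.52. All 5 genes passed the filter in the Piwi library labelled Yb KD and its control, with a median of 0.67. There 1 of the 5 was at least 2-fold above the table median, where 12.5% of all transcripts were. It was zfh2, at 3.97 (62.1 RPM in the library labelled Yb KD, 0 RPM in control KD), which passed only through the former. Of 22 other somatic gonad and follicle factors 16 passed the filter, with a median of 0.29 in Yb KD Armi iCLIP and -0.05 in the Piwi library labelled Yb KD. so, eya and sd, factors of the retinal determination and Hippo pathways, were at least 2-fold above the median in Yb KD Armi iCLIP, at 1.82, 1.05 and 1.07, while tj and Stat92E lay at -3.53 and -1.98. Of all transcripts 9.51% were at least 2-fold above. With 3.93 RPM in control KD, the gene so passed the filter only through the Yb KD column. In Zuc KD CLIPPARE 6 of the 16 were called higher (ct, br, chinmo, sd, yki and ttk) and 0 lower, beside the 11.8% over all transcripts. Of these br, chinmo and ttk are also among the BTB factors above. ct had 1.53 and 5.58 RPM in control KD CLIPPARE and yki 3.20 and 5.21 RPM. Both passed the filter only through the Zuc KD libraries. With each library centred, where 379 of all transcripts were higher and 570 lower, 5 of the 16 were higher (all of the 6 but yki) and tj was lower. With either Zuc KD library left out, none of the 16 was called.

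Because srp and ush are also factors of blood cells, hemocyte genes were read beside them. Of 7 other hemocyte factors 2 passed the filter; Rel, an NF-kappaB factor, was called higher in Zuc KD CLIPPARE (1.07, SE 0.333) and jumu lower (-1.24, SE 0.443). Both lost their calls when either Zuc KD library was left out. The 8 hemocyte markers found besides srp summed to 65.5 RPM in Yb KD and 51.9 RPM in control KD Armi iCLIP, and to 192 RPM in the Piwi library labelled Yb KD and 75.1 RPM in its control. In CLIPPARE they summed to 47.2 and 38.2 RPM in Zuc KD, against 50.4 and 74.4 RPM in control KD. Most of the 8 were low. Hml had 0.450 RPM, He 0.675 RPM and eater 0 RPM in Yb KD Armi iCLIP, and all 3 were at 0 in its control KD and in both KD Piwi libraries. Cg25C and vkg, collagen genes, had 2.02 and 2.47 RPM in Yb KD and 1.53 and 0.863 RPM in control KD Armi iCLIP.

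The other 3 markers moved unlike one another. Pxn, which encodes the matrix protein peroxidasin, had 14.8 RPM in Yb KD and 1.73 RPM in control KD Armi iCLIP, and 122 RPM in the Piwi library labelled Yb KD and 16.0 RPM in its control. It was called higher in Zuc KD CLIPPARE (1.36, SE 0.368), a call lost when either Zuc KD library was left out. With 3.32 and 5.21 RPM in control KD CLIPPARE, Pxn passed the filter there only through the Zuc KD libraries. Ppn, a gene of the matrix protein papilin, had 13.0 RPM in Yb KD and 2.88 RPM in control KD Armi iCLIP. The scavenger receptor gene crq, a High-class transcript, had 31.9 RPM in Yb KD and 44.9 RPM in control KD Armi iCLIP and was called lower in Zuc KD CLIPPARE (-1.12, SE 0.339), with the same loss. The part of these genes in the values of srp and ush was not tested.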

How the data were processed

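The authors' deposited tables give RPM for FlyBase transcripts. Per the submitters' processing notes, cutadapt and STAR with dm6 were used by the authors; versions, counting, multiply mapped reads, strand and duplicate removal are not given in the sources used here. All values of each column were whole multiples of 1 read (100% within 0.1 of a read), so reads were recovered. The loci of the tables appear to follow another assembly, so no positions are printed.

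The 6 genes and the gene lists were chosen with earlier results of these data known. The named genes are the 6, the 3 most alike profiles of each, and of each list the 2 highest by mean RPM and those that passed; fs(1)Yb and tj served as points of orientation. The class leaders (Xrp1, LanA), neighbouring genes, defining markers and some other list genes were named after their values were seen. Groups come from sample titles, and columns of 2 joined libraries have no test; limma planned for them was not run. Their log2 ratios use a pseudocount of 1 RPM and were set against the median over those averaging 5 RPM or more. Zuc KD CLIPPARE was fitted with limma 3.58.1 (lmFit, eBayes with trend; R 4.3.3), Benjamini-Hochberg adjusted over 4006 transcripts, two-sided, and tested on simulated data. The labels name no separate cultures, so p-values measure the spread between these libraries. Also tried were a pseudocount of 0.1 or 5 RPM, no filter or one of 20 RPM, libraries centred, eBayes without trend, the replicate number as a block, each library left out in turn, and count tests on the recovered reads (edgeR 4.0.16; DESeq2 1.42.0). Of 12 ratio comparisons 6 were planned. The others (between mutants, WT Myc-Armi or control KD beside untreated cells, Piwi beside Armi after KD), class ranks, spans, neighbours and the ratio of bab2 to bab1 were added after seeing the data. The 107 repeated lines of each of 3 tables held the same values and were dropped. Other steps ran in Python 3.11.15 (scipy 1.17.1, pandas 2.3.3, matplotlib 3.10.9, numpy 2.4.6).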

Additional observations from a re-analysis of the deposited data

How the results depend on the processing

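In Zuc KD CLIPPARE 582 of 4006 transcripts (14.5%) and all 6 genes were called. With no filter these were 45 transcripts (0.457% of those tested) and 2 genes (bab1 and Antp), with a filter of 20 RPM 211 transcripts (12.1%) and 1 gene (bab2, of 2 tested), with centring 23.7% of transcripts and 5 genes, by edgeR 906 transcripts (22.6%) and 5 genes, and by DESeq2 669 transcripts and 5 genes; the gene lost in the last 3 was srp. Leaving out 1 library gave 0.358 to 50.2% of transcripts (14 to 2002) and 1 to 6 genes; the library left alone in its group is then assumed to vary like the other group. The replicate numbers name no shared batch, and deviations of same-numbered libraries correlated at 0.049 over 4006 transcripts; with the number as a replicate block 545 transcripts (13.6%) and 5 genes were called, zfh1 being lost. Other pseudocounts and no trend left all 6 called. In every setting run, each gene's log2 change stayed above 0, from 0.54 (srp) to 4.05 (bab1). Genes at least 2-fold above the median numbered 2 in place of 1 with D862A under a pseudocount of 5 RPM, a median over transcripts of 20 RPM or a median over all transcripts with a read, and 5 with no centring. With R949A they numbered 3 in place of 2 under the same pseudocount and median settings, and 6 with no centring. In Yb KD Armi iCLIP they numbered 4 in place of 5 with a pseudocount of 5 RPM, and 6 with no centring. In the Piwi library labelled Yb KD they numbered 5 in place of 4 with that pseudocount. They numbered 6 there with a median over all transcripts with a read, and with no centring. For untreated Piwi beside Armi 1 gene lay 2-fold below with no centring, in place of 0. The causes were not tested. In the Piwi ratios bab1, srp and Antp rest on 3 to 11 control KD reads, each condition is 1 library, and the labels of both KD libraries hold conflicts.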
